A study of Mus musculus with 6 samples.

Results

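The ciliated epithelial cells without Wfdc12 were 1911 of the 19330 cells kept from 6 droplet libraries of dissociated mouse uterine tube (oviduct). The members passed a floor of 500 unique molecular identifiers (UMIs, counts of single RNA molecules) and 250 genes, and had at most 20% mitochondrial UMIs. They also had a UMI of at least 3 of 8 cilia genes (Foxj1, Dynlrb2, Dnah12, Cfap43, Spag17, Morn5, Rgs22 and Meig1), under 3 UMIs of the fibroblast genes Dcn, Col1a1, Col1a2 and Col3a1 together, and 0 UMIs of Wfdc12. A total of 3 libraries came from the proximal section of the tube, on the uterus side, and 3 from the distal section, on the ovary side. All came from adult C57BL6 females in estrus, with no allele or agent named in the labels, and the sections of a group of mice were pooled into a library, so a p-value measures the spread between pooled libraries. The libraries are called by the numbers in their titles, 2, 3 and 4 for proximal and 1, 2 and 3 for distal. The proximal libraries held 11, 6 and 23 members among 2300 kept cells, and the distal libraries held 529, 347 and 995 members among 17030.

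A multiciliated cell carries many motile cilia, and in the oviduct their beat moves cumulus, oocyte and fluid along the lumen. The axoneme of a motile cilium is a ring of microtubule doublets around a central pair, with dynein arms as motors, radial spokes and nexin links as regulators and filament-like proteins inside the doublets. Its genes are switched on late in differentiation by Foxj1 and the Rfx factors, after Gmnc, Mcidas, Ccno and Deup1 have driven the making of many basal bodies. Wfdc12 encodes a small secreted protein with a WAP four-disulfide core, a fold that several protease inhibitors share.

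Depth differed between the sections. Library totals ran from 426707 to 32488145 UMIs, and the proximal libraries were the 3 smallest. The median member held 2487, 1132.5 and 2486 UMIs in proximal 2, 3 and 4, and 3377, 2582 and 2564 UMIs in distal 1, 2 and 3. Proximal 2 stood apart before any comparison: 9 of its 11 members had no UMI of the nuclear RNA Malat1, and 0.0688% of its members' UMIs were mitochondrial. Proximal 3 held 6 members with 10389 UMIs in all and entered no test across genes. Among distinct kept barcodes, 188 of 19141 occurred in more than 1 library, and 1 of the 1910 distinct member barcodes was a member in more than 1 library. A doublet score marked 822 of the 19330 kept cells, and 97 members (5.08%), all in distal libraries. The number marked was set by library size, and only 17 of 2300 proximal cells were marked. In distal 1 it marked 58 of 529 members and 400 of 7073 kept cells.

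Ciliated-cell markers that the rule did not read were common in the members. Tppp3, a microtubule-binding protein of motile cilia, had a UMI in 34 of 40 proximal and in 86.8% of distal members, against 153 of 1002 proximal and 1442 of 6882 distal fibroblasts. Ccdc153, a coiled-coil protein of ciliated cells, had a UMI in 29 of 40 proximal and in 93.3% of distal members, against 0.2% and 3.28% of fibroblasts. Members with exactly 3 cilia genes numbered 330, with a median of 1156.5 UMIs and Ccdc153 in 85.5% of them. The 368 cells with exactly 2, just outside the rule, had a median of 1169 UMIs and Ccdc153 in 70.1%. Of the cells barred by Wfdc12, 68 had 1 UMI of it and 113 had 2 or more. Secretory markers were present too: the summed level of 8 such genes was 1274, 2021 and 3998 CPM (counts scaled to the library's sum) in proximal members and 4567, 5134 and 4990 CPM in distal members. Non-ciliated epithelial cells, which had epithelial keratin or adhesion UMIs and at most 1 cilia gene, had 16790, 3774 and 7309 CPM in proximal and 20104, 19910 and 13742 CPM in distal libraries. Immune, endothelial and pericyte lists had 0 to 96.3 CPM in members. Smooth muscle genes had 0, 289 and 109 CPM in proximal members and 99.6, 23.8 and 59.0 CPM in distal ones. The mesothelial list (Lrrn4, Upk3b, Wt1 and Krt19) had 561, 578 and 643 CPM in proximal members and 789, 864 and 922 CPM in distal ones. In distal non-ciliated cells this list had 1258, 1597 and 1183 CPM. Lrrn4 and Upk3b were at 0 in members of every library but distal 3. The 2 red blood cell globins had 611, 96.3 and 229 CPM in proximal members and 766, 5094 and 1976 CPM in distal ones.

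The members made up a smaller share of the proximal than of the distal libraries. They were 1.32%, 1.84% and 2.01% of kept cells in proximal 2, 3 and 4, and 7.48%, 8.13% and 17.5% in distal 1, 2 and 3. No proximal library reached the lowest distal one, and distal 3 held the highest share. The means were 1.73% ± 0.358 (SD, n = 3) and 11.03% ± 5.60 (n = 3), a difference of -9.31 percentage points (two-sided exact permutation test, p = 0.1, the smallest that 3 libraries against 3 can give). After every cell was thinned to 500 UMIs the difference was -5.24 points.

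Within the ciliated gate, cells without Wfdc12 were the large majority in both sections. They were 11 of 14 in proximal 2, 6 of 6 in proximal 3 and 23 of 26 in proximal 4, and 529 of 615, 347 of 382 and 995 of 1049 in distal 1, 2 and 3. The mean shares were 89.0% ± 10.7 (n = 3) in proximal and 90.6% ± 4.42 (n = 3) in distal libraries, a difference of -1.56 points that was smaller than the spread between libraries (exact permutation test, p = 0.9). The difference was 0.584 points without distal 3, 3.66 points without proximal 2 and 2.21 points after thinning to 500 UMIs, so its sign changed with the libraries and depth used. Detection of Wfdc12 followed depth. It was found in 1.66% of gate cells with under 1000 UMIs (95% exact interval 0.454 to 4.20%), 4.10% at 1000 to 2000, 7.80% at 2000 to 4000, 11.2% at 4000 to 8000 and 16.5% at 8000 or more (13.1 to 20.5%). In distal fibroblasts, which should lack it, 0.325%, 0.259% and 0.237% of cells had a Wfdc12 UMI at medians of 3719, 5050 and 2771 UMIs. A member is therefore a cell in which Wfdc12 was not detected at its depth, and a shallow cell could be a member with some Wfdc12 RNA.

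**Figure D1:**
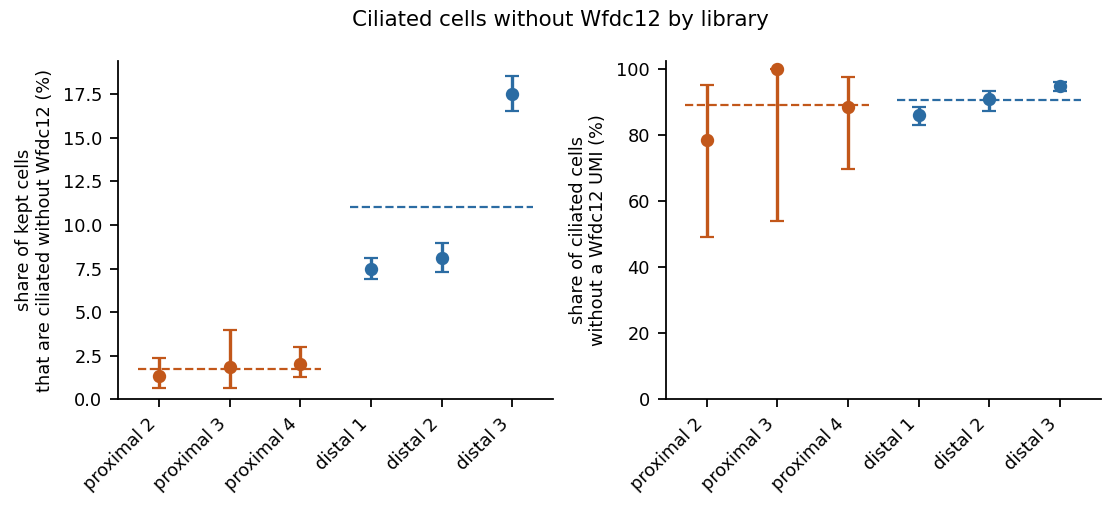
Share of kept cells that are members (left) and share of ciliated gate cells without a Wfdc12 UMI (right), in percent, for each library; bars are 95% exact binomial intervals for counting error only and dashed lines are means over 3 libraries. The proximal libraries lie between 1.32% and 2.01% on the left, below the 3 distal ones, while on the right the sections overlap.

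With ribosomal genes and the rule's own genes left out, the most abundant nuclear-encoded RNAs of the members mixed stress, structural and secretory products. In distal members Malat1 averaged 9091 ± 1558 CPM (SD, n = 3) and Mt1, a metal-binding metallothionein, 5908 ± 688 CPM. Mt1 had 509 ± 334 CPM in distal non-ciliated epithelium. S100a6, a calcium-binding protein, had 3694 ± 394 CPM in members and 581 ± 129 CPM in non-ciliated cells. The order was the other way for Tmsb4x, which binds actin monomers, with 4789 ± 842 CPM in members and 14046 ± 3103 CPM in non-ciliated cells. Ovgp1, the oviductal glycoprotein made by secretory cells, had 4330 ± 261 and 16754 ± 3788 CPM in the same order. Chchd10, a mitochondrial protein, had 3069 ± 210 and 769 ± 201 CPM, and Ccdc153 had 1913 ± 172 and 10.8 ± 4.48 CPM. Distal ciliated gate cells with a Wfdc12 UMI had 6588 ± 867 CPM of Mt1, 6037 ± 1877 of S100a6, 2483 ± 923 of Chchd10 and 1840 ± 641 of Ccdc153. Tmsb4x had 8863 ± 3169 CPM and Ovgp1 6744 ± 1338 CPM in those cells. The members were selected for cilia genes, so these levels describe them and are not tested.

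Members differed most among themselves in Malat1, Mt1, Ovgp1, S100a6 and Nupr1, in that order of mean rank of overdispersion over the distal libraries among 8925 genes. Nupr1, a stress-induced chromatin-associated protein, had a UMI in 52.4%, 43.8% and 60.7% of members of distal 1, 2 and 3. The secreted-protein gene Wfdc18 had one in 30.6%, 26.5% and 32.9%. Dcpp3, a secreted protein of the demilune cell and parotid protein family, had a UMI in 79 of 529, 28 of 347 and 129 of 995 of them, and 3537 of its 7406 UMIs in distal 1 came from 1 cell. The mitochondrial regulator Ppargc1a was at 323 ± 120 CPM in members and 20.9 ± 9.23 CPM in non-ciliated cells.

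Malat1 divided the members into cells of unlike content. No UMI of it was found in 83 of 529, 90 of 347 and 272 of 995 members of distal 1, 2 and 3, and in 9 of 11, 0 of 6 and 1 of 23 members of proximal 2, 3 and 4. These are shares of 15.7%, 25.9% and 27.3% in the distal libraries. Among fibroblasts of distal 1 and 2, 3 of 2462 and 2 of 2313 cells lacked it. Among non-ciliated epithelial cells 37.0%, 59.5% and 16.5% lacked it in distal 1, 2 and 3. The split was made on Malat1 after its values were seen, so the following values describe it without a test. Members without Malat1 were shallower, with medians of 1221, 1488 and 1256 UMIs against 4143, 3498 and 3700 UMIs in members with it. With cells thinned to 1000 UMIs, 15.1%, 23.9% and 22.7% of distal members still lacked it. Distal ciliated gate cells with a Wfdc12 UMI, thinned alike, lacked it in 19.3%, 26.5% and 16.7%, so cells without Malat1 were not particular to members.

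The members without Malat1 held little mitochondrial and little long-gene RNA. Mitochondrial UMIs were 0.538%, 0.437% and 0.271% of the total in distal 1, 2 and 3, against 5.98%, 6.18% and 5.71% in members with Malat1. Genes spanning 100 kb or more gave 4.36%, 4.59% and 5.21% of UMIs, against 17.2%, 16.1% and 15.7%. The ranges of the subsets did not overlap for either measure. All 11 proximal 2 members together had 4.21% of UMIs from such genes, next to the distal members without Malat1. The rule's own genes split the same way. Dnah12, a dynein heavy chain with a span of 201166 bases, was detected in 13.3%, 13.3% and 17.7% of members without Malat1, against 87.7%, 89.1% and 85.6% with it. Morn5, with a span of 30237 bases, was detected in 56.6%, 61.1% and 54.0%, against 34.3%, 42.4% and 34.7%. The rule asks for 3 of 8 genes, 4 of which span over 100 kb, so long-gene RNA bears on who is a member.

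**Figure D2:**
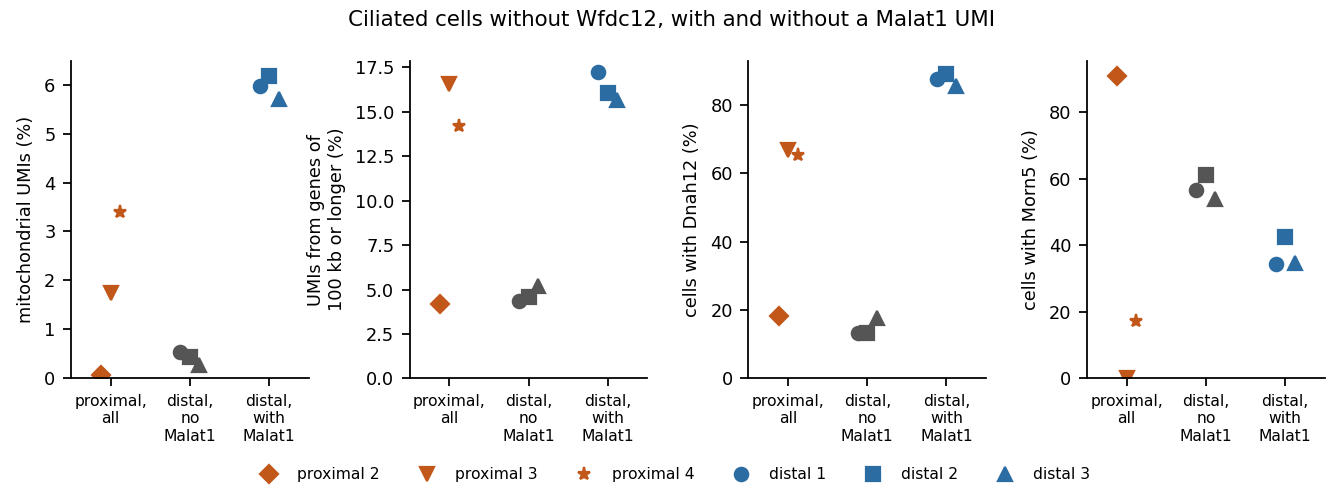
Percent of UMIs that are mitochondrial, percent of UMIs from genes spanning 100 kb or more, and percent of member cells with Dnah12 and with Morn5, for all members of each proximal library and for distal members without and with a Malat1 UMI; a point is 1 library. Proximal 2 lies near the distal members without Malat1 in the first 3 panels, and the distal subsets do not overlap in any panel.

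Several cilia genes, picked after their values were seen, stood higher in the members without Malat1, while cilia lists went both ways. Rsph1, a radial spoke head protein, averaged 1523 ± 118 CPM (SD, n = 3 distal libraries), against 388 ± 74.5 CPM in members with Malat1. Spa17, a sperm and cilia surface protein, had 1135 ± 26.1 against 252 ± 61.8 CPM, and the inner doublet protein Cfap126 had 2384 ± 108 against 632 ± 141 CPM. The centrins Cetn2 and Cetn4 had 652 ± 29.9 and 852 ± 120 CPM, against 181 ± 30.9 and 206 ± 25.9 CPM. Cox6b2, the testis form of a cytochrome oxidase subunit, had 272 ± 126 against 10.5 ± 4.37 CPM. Hbb-bs, a globin of red blood cells, was also higher, with 9023 ± 2948 against 1170 ± 1087 CPM. On the low side, the X-inactivation RNA Xist had 7.47 ± 7.27 against 792 ± 33.6 CPM and the paraspeckle RNA Neat1 had 13.5 ± 5.21 against 605 ± 145 CPM. The phosphodiesterase Pde4d had 2.42 ± 4.19 against 451 ± 90.3 CPM. By list, 15 of 18 doublet inner protein genes were higher in all 3 distal libraries and 13 of 19 axonemal dynein genes were lower in all 3. Of 17 radial spoke and central genes 5 were higher and 9 lower, and of 22 transport genes 12 were higher and 7 lower, whereas of all 2157 genes over 100 CPM 954 were higher and 871 lower.

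A small set of members carried several genes of early multiciliogenesis. Counting cells with a UMI of at least 3 of Gmnc, Mcidas, Ccno, Deup1, Plk4, Cdc20b, Foxn4, Myb and Trp73, there were 0 among the 40 proximal members, which allows up to 7.5%. There were 29, 18 and 60 in distal 1, 2 and 3, or 5.48%, 5.19% and 6.03%. A difference between the sections was not detectable at this depth. Among distal ciliated gate cells with a Wfdc12 UMI there were 5 of 86, 0 of 35 and 2 of 54, so members were not alone in holding such cells. Among non-ciliated epithelial cells there were 0, 0 and 1 in the distal libraries, and among distal fibroblasts 0, 1 and 0. After thinning to 1000 UMIs, 1.26%, 2.26% and 1.64% of distal members still had 2 or more of these genes. The shares were 2.41%, 0% and 5.56% in the gate cells with a Wfdc12 UMI. Outside the counted genes, Lrrc23, a radial spoke protein, averaged 261 ± 71.6 CPM in these cells and 146 ± 39.5 CPM in the other distal members. Msln, a surface glycoprotein listed here with secretory genes, had 50.4 ± 9.98 and 27.1 ± 11.1 CPM in the same order. Jag1, a Notch ligand, had 41.2 ± 8.13 and 82.4 ± 9.80 CPM, and the secretory-lineage factor Sox17 had 49.3 ± 9.33 and 79.0 ± 14.9 CPM. Each of these 4, picked after their values were seen, lay on the same side in all 3 distal libraries. Among list genes of 20 CPM or more in either set, 2 of 18 secretory genes were higher and 7 lower in all 3. Of 17 genes of the nexin-dynein regulatory complex and ruler, the list with Lrrc23, 1 was higher and 1 lower. Of 15 multiciliogenesis regulators, the list with Jag1, 2 were higher and 3 lower. The cells were chosen by their counts, which follow depth, and these levels are given without a test.

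The second comparison set the members against the Wfdc12-positive ciliated cells of the same distal libraries, which numbered 86, 35 and 54. It asked what else differed between ciliated cells with and without Wfdc12 RNA. Summed counts of each class in each library were tested with edgeR's quasi-likelihood test with the library as a block. Of 11516 genes tested, 988 changed (8.58%), 334 higher in members (2.9%) and 654 lower (5.68%), at a Benjamini-Hochberg adjusted p under 0.05. The median log2 fold change of all genes tested was 0.001. The classes were separated by Wfdc12 on these same cells, Wfdc12-positive cells were deeper (medians of 5482, 4054 and 5290 UMIs), and the class sums of members also serve as the distal side of the comparison of sections.

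Higher in members were Nupr1 and genes of several other roles. Nupr1 had 692, 635 and 973 CPM in members of distal 1, 2 and 3, against 131, 86.9 and 143 CPM in Wfdc12-positive cells. No library of members came near the Wfdc12-positive range, and the log2 fold change was 2.65 ± 0.16 (SE, edgeR adjusted p = 1.45e-08). Igfbp2, a binding protein of insulin-like growth factors, averaged 85.5 ± 7.22 CPM (SD, n = 3) in members and 13.4 ± 7.16 CPM in Wfdc12-positive cells. Rgs7, a regulator of G-protein signalling, had 85.8 ± 21.9 and 9.90 ± 6.75 CPM, and the transcription factor Gata6 had 41.1 and 5.99 CPM. These 4 genes were picked after their values were seen. By the fixed rule of size, Hs6st2, a heparan sulfate sulfotransferase, had 115 UMIs in members and 0 in Wfdc12-positive cells, which makes it at least 5.01-fold higher against 3 counts over the group. Depp1, with 105 and 0 UMIs, was at least 4.58-fold higher. Aldh1a1, a retinaldehyde dehydrogenase, had 184 UMIs in members and 1 in Wfdc12-positive cells, a pooled ratio of 24.1 (95% counting interval 4.26 to 955). The other 7 genes named by size had 1 or 2 UMIs in the Wfdc12-positive cells. They were Ccl5, Gm5089, Gm40008, Kcnd2, Kcnh8, Syt6 and Gm39417.

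Aside from Wfdc12, the lowest adjusted p was that of a neighbour of it. Wfdc15b, another WAP domain gene, had 210, 128 and 134 CPM in members of distal 1, 2 and 3, against 1407, 1508 and 1018 CPM in Wfdc12-positive cells. The classes were far apart in every library, at a log2 fold change of -3.06 ± 0.16 (edgeR adjusted p = 2.45e-09). In RefSeq GRCm38.p6, Wfdc12, Wfdc15a and Wfdc15b are consecutive protein-coding genes on chromosome 2. The longest exact run that the Wfdc12 and Wfdc15b transcripts share is 8 bases. S100g and Spink2 were picked after their values were seen. S100g, the calcium-binding calbindin D9k, had 235, 292 and 62.6 CPM in members, against 1305, 1355 and 837 CPM (log2 -2.80 ± 0.22, edgeR adjusted p = 2.47e-07). Spink2, a serine protease inhibitor, had 8.13 ± 3.52 CPM in members and 59.1 ± 3.52 CPM in Wfdc12-positive cells (SD, n = 3). The microtubule-associated protein gene Map6 had 6.83 ± 5.53 and 56.5 ± 41.3 CPM in the same order. The other 8 genes with the largest falls were Gm36913, Gfra3, Sez6l, Coch, C2cd4a, Gm46216, Gm11425 and 8030442B05Rik, each with 9 to 38 UMIs in members and 15 to 42 in Wfdc12-positive cells.

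**Figure D3:**
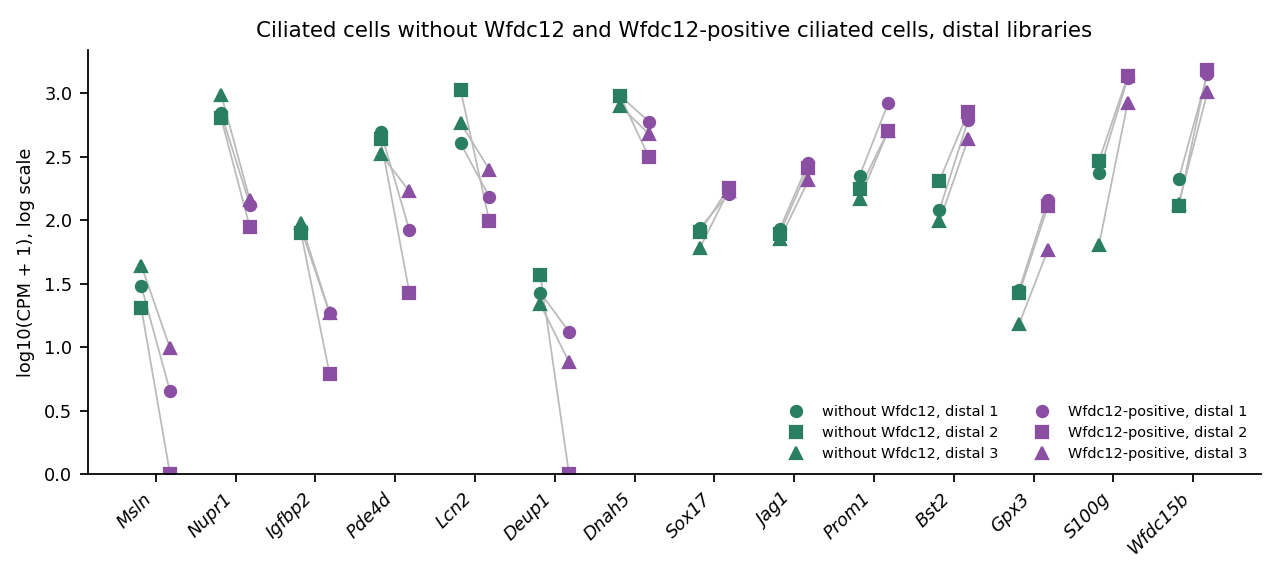
Level of 14 genes, as log10 of CPM plus 1, in members (left of each pair) and Wfdc12-positive ciliated cells (right) of each distal library, with lines joining the classes of 1 library. Msln, Nupr1 and Igfbp2 lie higher in members and Prom1, Bst2, S100g and Wfdc15b lie lower in every library.

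Genes of the axoneme were a little higher in members. So were the rule's 8 cilia genes, which summed to 6683, 6500 and 4927 CPM in members of distal 1, 2 and 3, against 5419, 5933 and 3564 CPM. Both classes had passed the same gate of 3 of these 8 genes at unlike depths. The part of that gate in the difference was not tested. In the list of axonemal dyneins, 3 of 20 tested genes rose and 0 fell, 18 of the 20 fold changes were above 0 and the median log2 was 0.34. Dnah5, a heavy chain of the outer arm, had 950, 951 and 790 CPM in members of distal 1, 2 and 3, against 596, 312 and 476 CPM in Wfdc12-positive cells (log2 0.96 ± 0.17, edgeR adjusted p = 0.00102). Dnah7c and Dnah10 rose as well, by 0.65 and 0.75. Of the nexin-dynein regulatory complex and ruler, 4 of 17 rose (Drc3, Lrrc23, Iqcg and Cfap57) and all 17 were above 0. Of radial spokes and central apparatus, 3 of 21 rose (Spag16, Hydin and Cfap61), and of the dynein assembly factors, which build the arms in the cytoplasm, 2 of 18 rose (Zmynd10 and Daw1). Of the doublet inner proteins, 5 of 26 rose (Tekt4, 1700013F07Rik, Enkur, Mns1 and Saxo2). No gene of these lists fell, and their medians lay between 0.29 and 0.43. The shares called, 11.1% to 23.5%, stand beside 2.9% of all genes that rose. Over the 5 lists edgeR called 17 of 102 genes, with 48 at an unadjusted p under 0.05, and DESeq2 called 5. Of all 11516 genes tested edgeR called 988 in either direction, with 2378 at an unadjusted p under 0.05, and DESeq2 called 443. All 17 stayed above 0 without any single distal library, but 7 were still called without distal 1 and 4 without distal 3. With cells thinned to 1000 UMIs, after the classes were set at full depth, 9 of the 17 were called. Without the library as a replicate block 1 was. In a smaller fit without cells holding 3 or more secretory UMIs, 16 were above 0 and edgeR called 0, with 10 at an unadjusted p under 0.05.

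Other cilia lists were mixed. Of intraflagellar transport and BBSome genes, which carry cargo along the cilium, 1 of 35 rose (Arl13b) and 1 fell (Ift172). Of the multiciliogenesis regulators, Deup1, a scaffold of the deuterosome, rose, while Prom1 and Jag1 fell. Deup1 averaged 27.5 CPM in members and 6.27 CPM in Wfdc12-positive cells (log2 1.68 ± 0.47), and its call was lost without any single distal library. Prom1, a membrane protein of protrusions, had 221, 174 and 146 CPM against 836, 506 and 505 CPM (log2 -1.76 ± 0.15), and Jag1 had 83.7, 77.4 and 69.7 CPM against 282, 256 and 205 CPM (log2 -1.67 ± 0.15). The members' highest library stayed below the lowest Wfdc12-positive one for both. Of tubulins and tubulin-modifying enzymes 4 of 23 rose (Tuba1b, Tubb4b, Ttll3 and Agbl4) at a median of -0.07. Of ciliary energy and signalling genes 4 of 20 rose (Ak8, Ak9, Akap14 and Pde4d), and Pde4d had 418 ± 83.1 against 91.6 ± 71.4 CPM. Of 26 apical adhesion and keratin genes edgeR called 0, with 2 at an unadjusted p under 0.05, and DESeq2 also called 0. Of 12 hormone receptor genes Ghr and Igf1r rose.

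Most called secretory genes were lower in members. Of 20 tested, 8 fell (Ovgp1, Pax8, Sox17, Pax2, C3, Upk1a, S100b and Gpx3) and 3 rose (Msln, Ltf and Lcn2), with a median of -0.34. Gpx3, a secreted glutathione peroxidase, had 22.4 ± 7.09 CPM in members and 109 ± 45.7 CPM in Wfdc12-positive cells (SD, n = 3 each). Ovgp1 had 3987, 4690 and 4358 CPM against 8237, 5702 and 7037 CPM (log2 -0.68 ± 0.12, edgeR adjusted p = 0.00141), but it was not called without distal 1 or without distal 3. The iron-chelating Lcn2 went the other way, with 402, 1059 and 581 CPM against 152, 97.2 and 249 CPM (log2 1.83 ± 0.26). Of 23 interferon response genes 7 fell, with Stat2, Ifi27, Bst2, Rtp4, Oasl2 and Igtp among them, and Usp18 rose, at a median of -0.54. Bst2, a membrane protein that tethers enveloped viruses, had 119, 203 and 96.6 CPM against 608, 706 and 434 CPM (log2 -2.12 ± 0.15). Of 30 immediate early and heat shock genes 7 rose (Egr1, Klf2, Klf6, Hspa1a, Hspa1b, Hsp90aa1 and Hsph1) and 5 fell (Fosl2, Dusp1, Hspb1, Cryab and Mt2).

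Secretory RNA moved with the classes. The 8 secretory markers summed to 4567, 5134 and 4990 CPM in members of distal 1, 2 and 3 and to 8623, 5933 and 7506 CPM in Wfdc12-positive cells, with Muc16 at 0 in distal 2 members and Sprr1a at 0 in all 3 Wfdc12-positive groups. Wfdc12 itself was at 1021, 1902 and 483 CPM in Wfdc12-positive cells, and had a UMI in 7 of 1722, 1 of 820 and 4 of 1122 distal non-ciliated cells. When cells with 3 or more secretory UMIs were left out, 240 and 518 members and 7 and 4 Wfdc12-positive cells of distal 1 and 3 remained, under the 10 cells a library asked for elsewhere, and 6 of 5560 genes were called. In that small fit Prom1 (0.75), Jag1 (0.09), S100b (0.46) and Dnah10 (-0.31) changed sign. With every cell thinned to 1000 UMIs, 358 of 5104 genes were called.

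**Figure D4:**
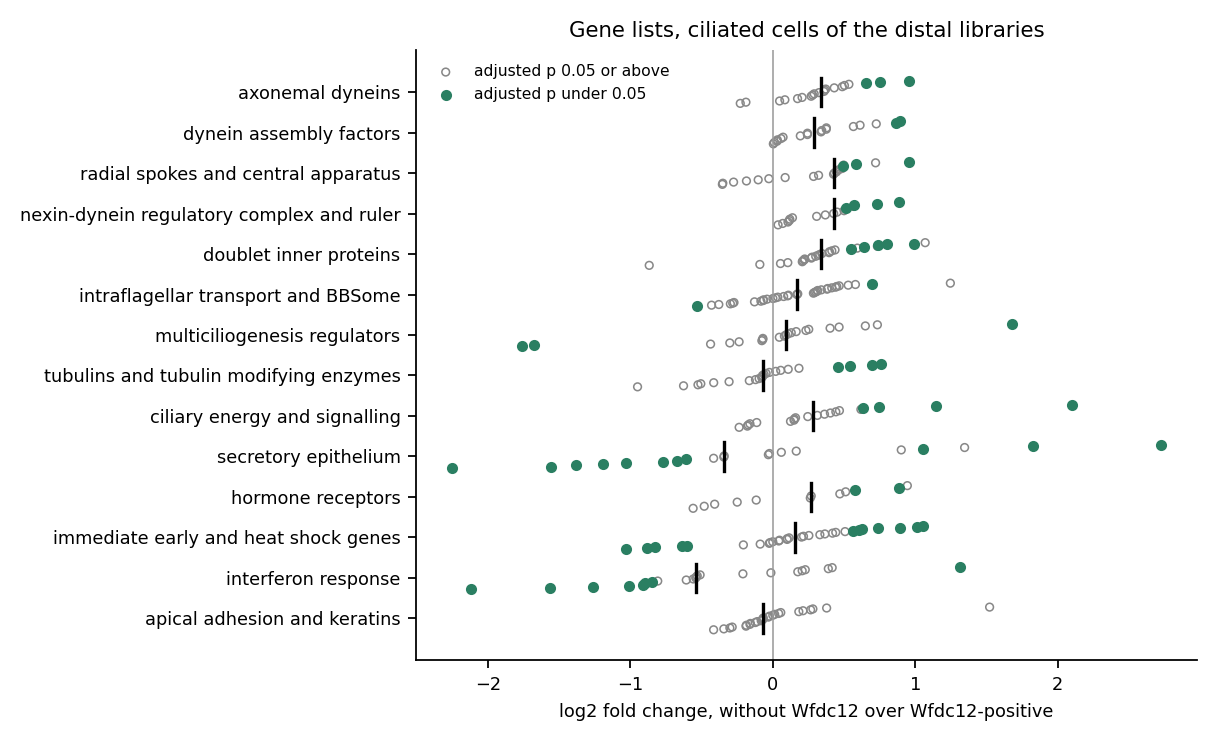
Log2 fold change of members over Wfdc12-positive ciliated cells for the tested genes of 14 lists; a point is 1 gene, filled where the edgeR adjusted p was under 0.05, and a bar marks each list's median. The 5 axonemal lists sit above 0 with medians of 0.29 to 0.43, while the secretory and interferon lists have medians of -0.34 and -0.54.

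Promoters of the axonemal genes are shown because 17 genes of those 5 lists rose together in members. Rfx factors bind the X-box, whose core is searched here as GTTGCC on either strand (GGCAAC on the other), in windows of 250 bases before to 50 after each gene's start in RefSeq GRCm38.p6. In capitals below are the matches. Enkur (chr2:21205316-21205615, minus strand) and Mns1 (chr9:72438279-72438578, plus strand) encode doublet inner proteins and Spag16 (chr1:69826720-69827019, plus strand) a protein of the central apparatus.
Enkur: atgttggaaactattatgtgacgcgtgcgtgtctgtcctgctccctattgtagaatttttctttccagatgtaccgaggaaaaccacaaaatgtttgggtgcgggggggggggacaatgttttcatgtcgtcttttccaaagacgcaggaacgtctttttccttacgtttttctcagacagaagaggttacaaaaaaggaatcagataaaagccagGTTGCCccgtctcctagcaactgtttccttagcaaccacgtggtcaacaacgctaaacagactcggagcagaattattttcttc
Mns1: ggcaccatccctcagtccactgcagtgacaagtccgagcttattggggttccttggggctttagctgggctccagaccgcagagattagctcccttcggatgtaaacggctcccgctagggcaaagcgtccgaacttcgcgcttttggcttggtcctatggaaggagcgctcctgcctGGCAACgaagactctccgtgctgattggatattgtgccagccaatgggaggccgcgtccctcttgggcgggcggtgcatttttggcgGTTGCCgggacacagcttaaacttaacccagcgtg
Spag16: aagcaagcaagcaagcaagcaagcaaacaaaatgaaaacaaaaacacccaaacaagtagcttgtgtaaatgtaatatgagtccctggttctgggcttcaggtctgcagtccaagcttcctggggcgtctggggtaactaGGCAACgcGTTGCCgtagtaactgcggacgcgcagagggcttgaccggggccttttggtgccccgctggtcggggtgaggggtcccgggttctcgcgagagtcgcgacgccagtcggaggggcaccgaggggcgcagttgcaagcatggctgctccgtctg
The first match starts 34 bases before the gene's start in Enkur, 72 in Mns1 and 111 in Spag16. Of the 105 genes of the 5 axonemal lists, 86 had a window and 44 of these a match (51.2%), against 14.1% of 27025 genes. Of 21 secretory genes with a window 4 had a match (19.0%). Of the 17 genes that rose, 16 had a window and 10 a match. The motif is a description of letters in these windows. Of the rule's markers only Dynlrb2 had a match, of 6 with a window. For contrast, the windows of Wfdc12 (chr2:164190509-164190808) and Wfdc15b (chr2:164221614-164221913), both on the minus strand, held 0 matches.
Dynlrb2: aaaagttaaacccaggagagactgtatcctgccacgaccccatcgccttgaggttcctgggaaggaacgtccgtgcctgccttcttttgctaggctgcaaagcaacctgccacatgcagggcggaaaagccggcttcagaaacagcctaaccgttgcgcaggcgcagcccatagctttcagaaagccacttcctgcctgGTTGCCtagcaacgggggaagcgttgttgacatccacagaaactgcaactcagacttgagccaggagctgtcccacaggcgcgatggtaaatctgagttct
Wfdc12: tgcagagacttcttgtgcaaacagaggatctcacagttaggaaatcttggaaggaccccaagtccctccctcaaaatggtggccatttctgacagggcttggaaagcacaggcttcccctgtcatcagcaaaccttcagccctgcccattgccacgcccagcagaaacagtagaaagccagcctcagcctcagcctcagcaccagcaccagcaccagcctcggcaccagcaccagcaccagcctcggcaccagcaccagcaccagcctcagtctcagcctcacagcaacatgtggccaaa
Wfdc15b: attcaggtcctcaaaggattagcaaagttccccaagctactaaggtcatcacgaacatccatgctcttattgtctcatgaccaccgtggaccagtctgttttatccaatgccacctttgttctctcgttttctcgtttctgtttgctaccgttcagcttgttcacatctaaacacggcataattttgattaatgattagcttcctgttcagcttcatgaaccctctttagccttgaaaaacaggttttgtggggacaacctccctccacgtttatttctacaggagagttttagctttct
The Dynlrb2 window is chr8:116504765-116505064 on the plus strand, with its match starting 51 bases before the gene's start.

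The third comparison asked how members differed between the sections. Libraries with at least 10 members entered, which were proximal 2 and 4 against distal 1, 2 and 3. Of 12386 genes tested with edgeR, 204 changed (1.65%), 129 higher in proximal members (1.04%) and 75 lower (0.606%). The libraries of the sections did not overlap for 48.1% of all genes tested, so a lack of overlap alone says little with 2 libraries against 3. The median log2 fold change of all genes was -0.42, and list medians below are to be read against it. Proximal 3, left out of the fit, is given beside the others in CPM from its summed counts.

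Higher in proximal members were a serum protease inhibitor, a calcium-binding protein and interferon-linked genes. Serpina1e, an alpha-1 antitrypsin, had 408, 0 and 523 CPM in proximal 2, 3 and 4, against 11.5, 3.76 and 0.371 CPM in distal 1, 2 and 3. Both tested proximal libraries lay above every distal one, and the log2 fold change was 6.46 ± 0.64 (SE, edgeR adjusted p = 1.59e-05). It was found in 16 of 40 proximal members, and in 38.9% of proximal non-ciliated cells but 0.499% of proximal fibroblasts. S100g had 17146, 1251 and 1046 CPM, against 241, 286 and 61.96 CPM (log2 5.21 ± 0.97, edgeR adjusted p = 0.00612). It was present in 30 of 40 proximal members, in 12.3% of distal ones and in 2.59% of proximal fibroblasts, but 414 of its 673 UMIs in proximal 2 came from 1 cell. Non-ciliated cells also had more S100g in the proximal section, with 511, 206 and 285 CPM, against 60.6, 65.7 and 52.2 CPM in distal libraries. Bst2 had 1783, 1155 and 1035 CPM, against 121, 199 and 95.7 CPM (log2 3.04 ± 0.55, edgeR adjusted p = 0.00517). All 3 proximal libraries stood above the distal ones for S100g and Bst2. The S100g call was lost without proximal 2, and that of Bst2 without distal 1 or without distal 3.

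Further genes rose on fewer counts. Gdf15, a stress-induced cytokine, had 25.5, 192.5 and 403 CPM in proximal 2, 3 and 4, against 11.2, 14.4 and 6.12 CPM in distal 1, 2 and 3 (log2 4.52 ± 0.58). Cryab, a small heat shock protein, had 2318, 0 and 131 CPM, against 44.6, 65.2 and 38.6 CPM (log2 4.21 ± 0.66), and 0 UMIs in proximal 3 amount to less than a floor of 289 CPM. Irgm1, an interferon-induced GTPase, had 153, 0 and 294 CPM, against 19.3, 16.3 and 12.4 CPM (log2 3.69 ± 0.44). Kif1a, a kinesin motor, Penk, an opioid precursor, Crabp1, which binds retinoic acid, the zinc transporter Slc39a8, Sntg2, LOC118567477 and the adenosine deaminase Ada completed the 10 largest rises, each with 5 to 21 UMIs in the tested proximal libraries. By list, Wfdc2, Cldn4 and Fut9 rose and Lcn2 fell among 21 secretory genes, and Cdkn1c rose among the regulators of multiciliogenesis. The calls of Gdf15, Irgm1, Kif1a, Penk and Slc39a8 were lost without proximal 4. Fosl2 and Egr3, both immediate early transcription factors, rose with Cryab, and Egr3 and Cldn4 were at 0 in proximal 2.

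Lower in proximal members were membrane, secreted and signalling genes of several kinds, many at 0 UMIs in all 40 cells. Nupr1 had 0, 963 and 10.9 CPM in proximal 2, 3 and 4, against 707, 623 and 964 CPM in distal 1, 2 and 3 (log2 -6.92 ± 1.11, edgeR adjusted p = 0.0023). The proximal 3 value rests on 10 UMIs of 1 cell, and 2 of 40 proximal members had a Nupr1 UMI against 55.2% of distal ones. Ghrh, the growth hormone releasing hormone, had 0, 0 and 10.9 CPM, against 312, 305.5 and 265 CPM. With 1 UMI in the tested proximal libraries its pooled ratio was 0.0268 (95% counting interval 0.000679 to 0.150). Dnah10, a heavy chain of an inner arm, had 0, 192.5 and 21.8 CPM, against 232, 220 and 195 CPM (log2 -4.09 ± 0.82), a call lost without distal 1.

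The 10 largest falls by the fixed rule all had 0 UMIs in the proximal members. Dcpp3 and Dcpp1 had a UMI in 0 of 40 proximal members, which allows up to 7.5%, against 12.6% and 4.92% of distal members. In distal 1 a single cell held 3537 of 7406 Dcpp3 UMIs and 1197 of 1717 Dcpp1 UMIs came from 1 cell, so no fold is given for these genes. After thinning to 1000 UMIs their distal shares of 6.64% and 2.19% lay within the 9.38% that 0 of 32 proximal members allows. Against 3 counts over the tested proximal libraries, with UMIs taken as independent, the phosphodiesterase Pde4b was at least 9.73-fold lower and AU040972 8.02-fold. The bounds were 6.25-fold for the cadherin Cdh13 and 5.86-fold for Stoml3, a stomatin-like membrane protein that ciliated sensory cells use. The calcium exchanger Slc24a3, Tspan15, Gm35507 and Rgs20 had bounds of 4.61-, 4.45-, 4.28- and 4.19-fold. Stoml3 had a UMI in 0 of 40 proximal members, which allows up to 7.5%, and in 38.3% of distal ones. Thinned to 1000 UMIs it was in 0 of 32 proximal members and in 14.5% of distal ones. Thinned distal shares of 6.58% for Pde4b, 7.55% for Tspan15 and 9.32% for Rgs20 lay within the 9.38% allowed. Proximal and distal fibroblasts had a Stoml3 UMI in 0% and 0.407% of cells. Cdh13 was in 0 of 40 proximal members and in 172 of 529, 119 of 347 and 290 of 995 distal ones. In the fit without proximal 4 the median log2 fold change of all genes tested was -6.03, so a fall kept there says little. All of these 10 calls except those of Dcpp3 and Pde4b were lost without proximal 4.

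**Figure D5:**
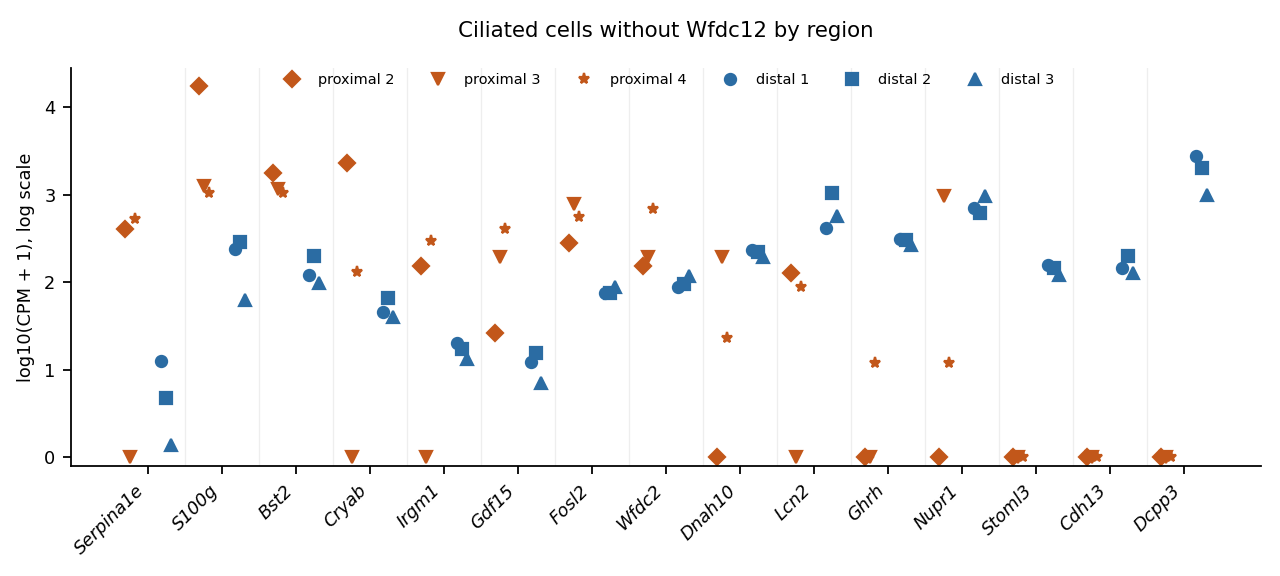
Level of 15 genes in members, as log10 of CPM plus 1, for proximal (left of each gene) and distal libraries (right); a point is 1 library and proximal 3 was not in the test. S100g and Bst2 lie higher in all 3 proximal libraries, while Stoml3, Cdh13 and Dcpp3 are at 0 in each of them.

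Lists of cilia genes had medians below the overall shift in proximal members, with 1 gene called. The medians were -1.42 for 20 axonemal dyneins, -1.19 for 18 assembly factors, -1.25 for 21 spoke and central genes, -0.83 for 17 nexin and ruler genes and -1.24 for 35 transport genes. That of 26 doublet inner proteins was -0.99, or -0.92 with genes at 0 set to their bound. Of the 137 genes of these 6 lists edgeR called Dnah10, with 58 at an unadjusted p under 0.05, and DESeq2 called 20. Of all 12386 genes tested edgeR called 204 (1.65%), with 2015 at an unadjusted p under 0.05, and DESeq2 called 694. Interferon response genes lay on the other side, with a median of 1.09 over 24 genes, 20 of them above 0, of which Bst2 and Irgm1 passed. The secretory list had a median of 0.12 (0.36 with genes at 0 set to their bound), and its summed marker level was lower in each proximal library than in every distal one. These medians rest on 34 proximal cells, of which 9 in proximal 2 and 1 in proximal 4 had no Malat1. Their part in the differences was not tested. With all cells lacking Malat1 left out, 2 members of proximal 2 remained, so proximal 4 stood alone on the proximal side and was assumed to vary like the distal libraries. That fit kept 27 of 37 named calls, and leaving out proximal 2 kept 26.

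Calls between the sections depended on single libraries and on pairing. Whether sections with the same number came from the same mice is not given in the sources used here. With the title number as a replicate block edgeR called 0 genes, with 355 at an unadjusted p under 0.05, and with the description number it called 9. Without proximal 2, 318 genes were called and 11 of the 37 named ones that could be fitted lost their call, among them S100g, Cryab and Crabp1. Without proximal 4, 249 genes were called, 22 of 37 lost their call and Egr3, Cldn4 and Atg9b changed sign. In that fit, with proximal 2 alone on its side, the median log2 fold change of all genes tested was -6.03. Serpina1e, S100g and Bst2 stayed higher in it. Nupr1, Dcpp3, Ghrh and Pde4b stayed lower, which says little beside that median. Lcn2 was called in 5 of 17 alternatives. With the distal sums thinned to the proximal depth, 3 of 1617 genes were called.

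The last comparison asked whether the section difference of members differed from that of non-ciliated epithelial cells, by the interaction of class and section in edgeR. Of 14291 genes, 97 passed (0.679%), 30 with a proximal over distal difference higher in members (0.21%) and 67 with a lower one (0.469%). Cdh13 led the low side: it was at 0 and 0 CPM in members of proximal 2 and 4, against 142, 206 and 123 CPM in distal members, and at 2.15 and 33.5 CPM in proximal non-ciliated cells, against 5.41, 2.67 and 2.87 CPM in distal ones (edgeR adjusted p = 2.28e-09). Arc, an immediate early gene, showed the other pattern. It had 49.4 and 413 CPM in proximal members, against 62.4, 37.4 and 49.4 CPM in distal members, and 2.15 and 10.1 CPM in proximal non-ciliated cells, against 27.9, 13.04 and 43.9 CPM in distal ones. The interaction was 4.37 ± 0.67 (log2, edgeR adjusted p = 1.58e-07). Both calls were lost without proximal 4.

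From the lists, the proximal over distal difference of the metallothioneins and the Hsp70 genes was lower in members than in non-ciliated cells. Mt1 averaged 7470 ± 3572 CPM (SD, n = 2) in proximal members and 5893 ± 612 CPM (n = 3) in distal ones, and 4433 ± 4585 and 587 ± 335 CPM in the non-ciliated cells (interaction -2.26 ± 0.56). Mt2 gave -2.46 ± 0.56, Hspa1a -3.94 ± 0.78 and Hspa1b -3.86 ± 0.71. Hspa1a averaged 21.4 CPM in proximal and 154 CPM in distal members, and 41.3 and 19.6 CPM in non-ciliated cells. Hspa1b had 30.2 and 61.8 CPM in members, and 33.4 and 4.92 CPM in non-ciliated cells. The interaction was also below 0 for the cilia genes Tekt4 (-3.55 ± 0.86), Ccdc65 (-3.19 ± 0.55) and Dnah10 (-6.46 ± 1.80). Tekt4 averaged 50.5 CPM in proximal and 141 CPM in distal members, Ccdc65 191 and 89.3 CPM, and Dnah10 8.78 and 215 CPM. In non-ciliated cells Tekt4, Ccdc65 and Dnah10 rest on 12, 55 and 3 UMIs in the proximal libraries, and the gate held those cells to at most 1 marker gene. Cryab (2.81 ± 0.49) and Irgm1 (1.94 ± 0.52) had a larger excess in members. Cryab turned to -7.75 when cells with 3 or more immune, endothelial, muscle or mesothelial UMIs, those of Krt19 included, were left out. That filter cut the distal 1 members from 529 to 265 and those of proximal 2 to 8. Proximal 2 thus left the fit and proximal 4 stood alone on its side. In the main fit Cryab had 1500 CPM in members of proximal 2 and 105 CPM in those of proximal 4. Without proximal 4, Ccdc65 and Cryab kept their call among these 9 genes, and without proximal 2 Cryab and Irgm1 lost theirs. The difference did not pass the test for Serpina1e (edgeR adjusted p = 0.765) or Bst2 (0.449), so their rise in proximal members was not shown to differ from that in non-ciliated cells.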

How the data were processed

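The data are 6 droplet single-cell libraries (10x 3' chemistry) of dissociated mouse uterine tube. The authors deposited raw UMI counts per gene and barcode (unit: counts), made with Cell Ranger 7.0.0 per the file headers, whereas Cell Ranger 6.1.2 and the build mm39 are listed in the submitters' processing notes. The number of mice is not given in the sources used here. Each library pools the tissue of a group of mice.

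Barcodes with at least 500 UMIs, 250 genes and at most 20% UMIs of 13 mitochondrial genes were kept, 19330 of 20731. Doublets were scored against simulated ones, the highest 0.8% per 1000 barcodes were marked, and none were removed. Counts were summed over cells per library and class, for libraries with at least 10 cells, and tested with edgeR 4.0.16 (TMM, filterByExpr, quasi-likelihood test, Benjamini-Hochberg adjustment, threshold 0.05) in R 4.3.3. DESeq2 1.42.0 was the alternative tool. The 13 genes of the rule were in the fits for scaling and are not called. CPM beside a fold change between classes or in the interaction are edgeR's, and all others come from summed counts alone. Shares were compared by exact permutation in scipy 1.17.1. Intervals and floors (3 counts) cover counting error only.

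Named genes are the 10 largest changes each way among called genes with libraries on the same side (6 each way for the interaction), called members of 14 lists, and genes said to be picked after their values were seen. Mitochondrial and ribosomal protein genes were left out of the rankings by size and by abundance. Of 362 list symbols, 355 matched. Some genes are not reported here. The members and lists were chosen with earlier results of these data known. On simulated data the fit between sections recovered 15% of changes at a log2 of 2 and 59.1% at 3 (11896 genes), and that between classes 61.4% at 1. For the interaction it was 4.92% at 2 and 29.2% at 3 (13143 genes), so most interactions of that size would be missed. Promoter windows are RefSeq's, of GRCm38.p6. The alternatives left out each library in turn, changed the tool, scaling, filter, depth, doublets and markers, and left out cells without Malat1 or with secretory UMIs.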

Additional observations from a re-analysis of the deposited data

Results flagged for a closer look

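The genes below drew attention because the difference between the sections, tested as an interaction in edgeR, was not the same in members as in non-ciliated epithelial cells. Values are means over 2 proximal and 3 distal libraries. Egr3, an immediate early factor, had 167 CPM in proximal and 20.2 CPM in distal members, and 3.35 and 13 CPM in proximal and distal non-ciliated cells (interaction 5.04 on the log2 scale). Nlrp6, an inflammasome sensor, had 54.9 CPM in proximal and 4.15 CPM in distal members, and 3.59 and 8.79 CPM in proximal and distal non-ciliated cells (interaction 4.82 on the log2 scale). Igfbp3, a growth factor binding protein, had 123 CPM in proximal and 23.3 CPM in distal members, and 8.02 and 34.6 CPM in proximal and distal non-ciliated cells (interaction 4.41 on the log2 scale). Arc, an immediate early gene, had 231 CPM in proximal and 49.8 CPM in distal members, and 6.11 and 28.3 CPM in proximal and distal non-ciliated cells (interaction 4.37 on the log2 scale). Krt17, a stress-related keratin, had 127 CPM in proximal and 6.29 CPM in distal members, and 8.02 and 7.18 CPM in proximal and distal non-ciliated cells (interaction 4.36 on the log2 scale). Egr3, Igfbp3 and Krt17 were at 0 in members of proximal 2 and changed sign without proximal 4. The Nlrp6 values rest on 9 UMIs in proximal members and 4 in proximal non-ciliated cells, and it was called in 7 of 13 alternatives. Crabp1 had 87.3 CPM in proximal and 2.47 CPM in distal members, and 0 and 1.87 CPM in proximal and distal non-ciliated cells (edgeR adjusted p = 0.000722). A group at 0 leaves its fitted size without a meaning, so an adjusted p is given for it and for the next genes.

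Of 6 further genes no UMI was found in proximal members of the tested libraries. Cdh13 had 0 CPM in proximal and 157 CPM in distal members, and 17.8 and 3.65 CPM in proximal and distal non-ciliated cells (edgeR adjusted p = 2.28e-09). 9530014B07Rik had 0 CPM in proximal and 0.397 CPM in distal members, and 98.2 and 0.138 CPM in proximal and distal non-ciliated cells (edgeR adjusted p = 0.0416). Cytip had 0 CPM in proximal and 49.2 CPM in distal members, and 8.37 and 2.17 CPM in proximal and distal non-ciliated cells (edgeR adjusted p = 0.00835). Dcpp3 had 0 CPM in proximal and 1916 CPM in distal members, and 667 and 6487 CPM in proximal and distal non-ciliated cells (edgeR adjusted p = 0.00597). Ccl5 had 0 CPM in proximal and 20.8 CPM in distal members, and 169 and 27.5 CPM in proximal and distal non-ciliated cells (edgeR adjusted p = 0.00174). Rptor had 0 CPM in proximal and 72 CPM in distal members, and 54.5 and 44.6 CPM in proximal and distal non-ciliated cells (edgeR adjusted p = 0.00401). For 9530014B07Rik the distal members were near 0 too, so the difference lies in the non-ciliated cells. The call of 9530014B07Rik was lost without any single library. Cytip had 8 UMIs in proximal non-ciliated cells and was called in 7 of 13 alternatives. Crabp1 had 12 UMIs in proximal members and was called in 8 of 11. As given above, a single cell held a large part of the Dcpp3 UMIs of distal 1 members.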

How the results depend on the processing

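Between the sections, 204 genes were called, against 694 with DESeq2, 530 with no low count filter, 3 with distal sums thinned, 319 without cells lacking Malat1, 435 with libraries of at least 3 cells, and 106 to 318 when a library was left out. The title numbers 2 and 3, and the description numbers 2 and 4, occur in both sections. Paired by title number in a replicate block, edgeR called 0 genes, with 355 at an unadjusted p under 0.05. A block by description number gave 9 and a term for group 2 gave 377. Deviations of proximal 2 correlated with those of distal 2 at 0.214 and with distal 1 at -0.146, but with 2 tested proximal libraries this cannot settle whether numbers pair the sections. The paired mean differences were -11.2 points for the share of kept cells and -3.56 points for the share without Wfdc12. Between classes, 988 were called, against 443 with DESeq2, 358 thinned, 6 with secretory cells left out, 369 with no replicate block, and 425 to 992 when a library was left out. For the interaction, 97 were called, against 42 thinned, 44 without cells bearing other types' UMIs, and 49 to 89 when a library was left out.

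Signs changed in few values. Without proximal 4, the section difference was -8.70 for Egr3, -10.4 for Cldn4 and -6.93 for Atg9b. Leaving out other libraries gave values of up to 3.94, 3.18 and 4.29. The median log2 fold change of all genes in the fit without proximal 4 was -6.03. Egr3 and Cldn4 were at 0 in proximal 2, so their sizes there are without a meaning. The interaction without proximal 4 was -0.61 for Egr3, -6.48 for Igfbp3 and -6.55 for Krt17, where leaving out others gave up to 5.21, 4.81 and 5.18. These genes too were at 0 in members of proximal 2, so the sizes measure no reversal. Wfdc2 was -0.11 in the title block. The Cryab interaction was -7.75 without cells of 3 or more immune, endothelial, muscle or mesothelial UMIs, a fit that lacked proximal 2. With secretory cells left out, the class difference was 0.46 for S100b, -0.31 for Dnah10, 0.75 for Prom1 and 0.089 for Jag1. The share without Wfdc12 differed by 0.584 points without distal 3, 3.66 without proximal 2 and 2.21 thinned, within -7.05 to 3.66 when a library was left out. The share of kept cells differed by -6.08 to -11.1 points. Of values for named genes under the alternatives, 755 of 1029 (classes), 412 of 588 (sections) and 181 of 269 (interaction) kept direction and call. Scaling by RLE size factors changed no named call. The causes were not tested. With 40 proximal members, changes under a log2 of 2 are rarely within reach. The secretory alternative could not be fitted at 10 cells a library.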
